A study of Homo sapiens with 6 samples.

Results

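The RNAs recovered with the long non-coding RNA CyCoNP (LINC02381) were compared with the RNAs of the extract they came from. The comparison was between 4 of the 6 libraries, 2 of CyCoNP pull-down and 2 of input, with the spread estimated over all 6 unless stated, and it covered the 12419 of 60676 genes that had 10 or more counts summed over these 4 libraries. The cells were SK-N-BE, an established human neuroblastoma line, taken at day 1.5 of differentiation under 10 µM retinoic acid, and all groups shared this line, day and treatment. In the pull-down (PD), biotinylated antisense DNA probes against CyCoNP were mixed with the extract and collected on streptavidin beads. A control pull-down (LacZ) used probes against bacterial LacZ, and input (INP) was 10% of the extract, taken before the probes were added. RNA was sequenced as full-length cDNA on nanopores after PCR, with 2 libraries in each group. Duplicates carried the numbers 1 and 2 in every group, and the study calls them biological duplicates, while the labels do not say that they came from separate cultures, so p-values measure the spread between these libraries.

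An antisense pull-down recovers a chosen RNA together with RNAs that pair with it or sit in the same ribonucleoprotein particles, and it also carries over abundant RNA that sticks to beads and probes. Long non-coding RNAs that stay in the cytoplasm can pair with messenger RNAs, hold microRNAs away from their targets, or scaffold proteins. Neuroblastoma cells derive from the sympathoadrenal lineage of the neural crest, and retinoic acid makes SK-N-BE cells leave the cell cycle and extend neurites. The microtubule-associated protein MAP1B and the adhesion molecule NCAM1 are both tied to that change.

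The study designed 22 probes of 20 bases against CyCoNP, with 35% to 65% GC. CyCoNP lies on chromosome 12, plus strand, at chr12:54126019-54147485 in GRCh38, and 5 transcripts of the gene are annotated. All 22 probes were exactly complementary to an annotated transcript of 1369 bases and 2 exons, at positions 50 to 1215, and 5 of them to the canonical transcript of 2792 bases. The first probe, the probe that crosses the junction of exons 1 and 2 (probe 7) and the last are shown because they mark the stretch of CyCoNP that was used as bait. They are written 5′ to 3′ in lower case, since every base pairs with CyCoNP.
probe 1: tggcgaaaagggagggtgaa
probe 7: taatcaggggtgttctgctc
probe 22: ccgaagcgactgacttctaa
Other transcripts that share bases with these probes are described with the enriched genes.

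The libraries held 717905 and 791970 counts for input, 1512148 and 514882 for CyCoNP PD, and for LacZ 18870 and 140115. Markers of the neuroblastoma and sympathoadrenal lineage (PHOX2A, MYCN, DBH, GATA3 and 6 others) summed to between 1523 and 2681 counts in each of the 4 libraries compared. The epithelial markers summed to between 15 and 34 counts, with KRT19 at 12, 20, 22 and 10 in input 1, input 2, PD 1 and PD 2. Immune, glial and erythroid marker lists summed to 6 counts or fewer in each of these libraries, with PTPRC, CD3E, SOX10, HBB and ALAS2 at 0 in all 4. The libraries numbered 1 stood apart from those numbered 2. A set of 38 skeletal muscle genes, chosen after their values were seen, summed to 1658 counts in input 1 and 6385 in PD 1 but 19 in input 2 and 30 in PD 2, and to 88 and 7 in LacZ. MYOG, a muscle-specifying transcription factor, had 666 and 1284 counts in input 1 and PD 1 against 1 and 0 in input 2 and PD 2, and COL1A1, a collagen chain from fibroblast markers, had 192 and 186 against 10 and 3. The muscle genes with 10 or more counts numbered 19 in input 1, 29 in PD 1, 0 in input 2 and 1 in PD 2, and the 6 fibroblast markers summed to 368, 496, 32 and 32. Of the 12419 genes, 450 (3.62%) had no count in either library numbered 2, 258 of them processed pseudogenes, while 21 had none in either library numbered 1. Where the muscle and collagen RNAs in the libraries numbered 1 came from, and their part in the results, was not tested. In bulk libraries fewer cells of a type cannot be told apart from less RNA per cell.

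CyCoNP itself had 20 and 39 counts in input and 11687 and 3507 in PD, against 1 and 20 in LacZ. Expressed as CPM (counts scaled to a common library size with edgeR's TMM factors), it stood at 43.9 ± 20.8 in input and 8486 ± 1100 in PD (SD, n = 2). The groups did not overlap, and the log2 fold change of 7.59 ± 0.96 (SE) passed edgeR's quasi-likelihood test with a Benjamini-Hochberg adjusted p of 0.0161. Fitted on only the 4 libraries compared, the adjusted p was 0.278, and with the replicate number as a further term in the 6-library fit it was 5.22e-15. LacZ, at 31.4 and 143 CPM, lay near the inputs.

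Across all genes few others passed. At an adjusted p under 0.05 and a log2 fold change beyond 1 in edgeR, 14 genes were enriched in PD (0.113% of those tested) and 1 was depleted (0.00805%), and before adjustment 379 genes were higher and 285 lower at a p under 0.05. Same-numbered libraries deviated together, and when the edgeR model also held a term for the replicate number (the replicate block), it called 191 genes enriched (1.54%) and 92 depleted (0.741%). Without the block, leaving out either LacZ library left no call in either direction, where before adjustment 367 genes were higher and 327 lower without LacZ 1, and 380 and 325 without LacZ 2. Leaving out input 1 gave 103 enriched and 18 depleted genes, input 2 gave 47 and 12, PD 1 gave 67 and 41, and PD 2 gave 56 and 6. A fit on only the 4 libraries compared called no gene in either direction (364 higher and 330 lower before adjustment), and 241 and 161 with the block. DESeq2 called 58 and 14 genes. Restricting the table, after the data had been seen, to the 8431 genes with 10 or more counts in the libraries numbered 2 gave 96 and 34 calls, or 155 and 84 with the block.

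The enriched genes without the block were CyCoNP, PSMC4, C20orf96, PRKRIP1, POPDC3, C1orf122, SLC38A10, NUDT17, ZNF627, HOXD-AS2, TULP3, ARC and the unnamed genes ENSG00000274383 and ENSG00000280063. All 14 were also called with the block and by DESeq2, and in each the 2 PD libraries lay above both inputs. That order held for 17.2% of all tested genes, and the 14 were chosen on these same libraries. PSMC4, an ATPase subunit of the 19S cap of the proteasome, had 48 and 40 counts in input, 2620 and 714 in PD and 3 and 8 in LacZ. It stood at 65.1 ± 6.97 CPM in input and 1823 ± 359 in PD (SD, n = 2), a log2 fold change of 4.80 ± 0.71 (SE) with an edgeR adjusted p of 0.0262. Both PD libraries were far above both inputs, and LacZ, at 94.2 and 57.0 CPM, was close to input. PRKRIP1, a spliceosome-associated protein, went from 26 and 23 counts to 1501 and 305 (log2 fold change 4.67 ± 0.70). POPDC3, a Popeye domain protein of the plasma membrane, went from 30 and 13 to 1140 and 365 (4.74 ± 0.72).

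C20orf96 had no count in input or LacZ and 218 and 100 counts in PD, at least 44.2-fold higher than a floor of 3 counts per input library. ENSG00000274383, a lncRNA, had none in input and 74 and 31 in PD, at least 14.3-fold higher, but LacZ held 2 and 6 counts of it, which is 62.8 and 42.8 CPM beside 58.7 and 68.1 CPM in PD. LacZ was thus at the level of PD, at very few counts. NUDT17, a nudix hydrolase, had 0 and 1 counts in input and 93 and 62 in PD. ZNF627, a zinc finger protein, had 1 and 3 against 267 and 39. SLC38A10, an amino acid transporter, had 3 and 4 against 302 and 54. These genes were scarcely seen in the extract, and 7 of the 14 had under 10 counts in input, beside 2932 of the 12419 tested genes.

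TULP3, which carries receptors into the cilium, had 21 and 10 counts in input and 363 and 823 in PD, a log2 fold change of 5.50 ± 0.95. Among the 14 genes it was the one with the largest ratio between its PD libraries, at 288 and 1809 CPM. ARC, an immediate early gene of neuronal activity, had 3 and 3 counts in input, 164 and 43 in PD and 0 and 2 in LacZ. HOXD-AS2, a lncRNA of the HOXD cluster, had 7 and 15 against 411 and 133 (log2 fold change 4.22 ± 0.72). C1orf122 had 19 and 9 against 650 and 243.

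Genes that the study named for the pull-down gave the following values. NCAM1, the neural cell adhesion molecule, had 147 and 122 counts in input, 1945 and 477 in PD and 3 and 1 in LacZ. Its groups did not overlap, and the log2 fold change of 2.70 ± 0.76 had an edgeR adjusted p of 0.332, and 0.000687 with the replicate block. UBE2V2, a ubiquitin-conjugating enzyme variant, had 100 and 165 counts in input against 2357 and 1744 in PD (log2 fold change 3.85 ± 0.73, adjusted p = 0.0679, and 2.26e-06 with the block). SAMD4B, an RNA-binding protein of the Smaug family, had 36 and 31 against 488 and 537 (3.97 ± 0.83, adjusted p = 0.0972, and 1.92e-07 with the block). All of these lay above both inputs in both PD libraries.

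IGF2, a fetal growth factor, was the most abundant nuclear-encoded mRNA in PD among the genes named here, with 2499 and 2873 counts in input against 26500 and 16739 in PD. Its log2 fold change of 2.86 ± 0.80 had an adjusted p of 0.323, and 0.0210 with the block. CENPF, a kinetochore protein of dividing cells, had 103 and 117 counts in input and 598 and 759 in PD (2.71 ± 0.75, adjusted p = 0.314, and 0.00315 with the block). MKI67, the proliferation antigen Ki-67, had 15 and 24 against 321 and 355, and 0 and 11 in LacZ (4.14 ± 0.86, adjusted p = 0.0951, and 1.99e-08 with the block). Both mitotic genes were higher in PD 2 than in PD 1 once scaled, at 1668 against 474 CPM for CENPF and 780 against 254 CPM for MKI67. GAPDH, the glycolytic enzyme often used as a reference, had 1453 and 2604 counts in input and 7676 and 2150 in PD, a log2 fold change of 0.84 ± 0.70 that passed neither fit.

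**Figure D1:**
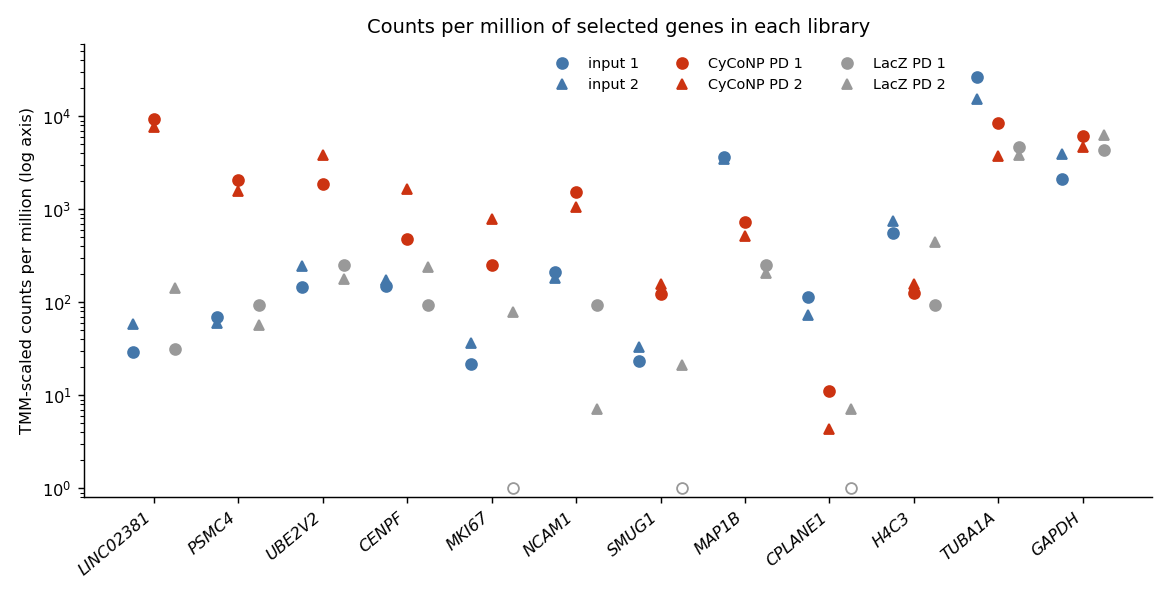
Level in CPM (log axis) of 12 genes in each library, with circles for libraries numbered 1, triangles for those numbered 2, and open points at the bottom for 0 counts. CyCoNP (LINC02381), PSMC4 and UBE2V2 lie above both inputs in the 2 CyCoNP PD libraries, MAP1B, CPLANE1 and H4C3 lie lower, and GAPDH has a log2 fold change of 0.84.

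The 191 genes enriched with the block were, as a group, shorter and of lower input than all tested genes, and the lower input is in part set by the count minimum, which a gene with little input passes only when it is high in PD. Their median transcript length was 2028 bases (all tested genes 2901), their median GC content 52.1% (47.6%) and their median input level 11.9 CPM (17.1). They held 132 protein-coding genes, 21 lncRNAs and 19 processed pseudogenes (9.95%, beside 7.34% of all tested genes). A single exon was found in 38 of them (19.9%), beside 10.7% of all tested genes. The pairs gave the same sign for 181 of the 191, 161 were above 1 on the log2 scale in both pairs (5.05% of all genes were), and 57 were also called by DESeq2. The block fit chose these genes by their changes within the same pairs, so agreement of the pairs follows from the choice. In input, 74 of the 191 had under 10 counts and 18 had none, beside 2932 and 106 of the 12419 tested genes. In LacZ 47 had none, beside 3271 of all tested genes. In the libraries numbered 2, 37 of the 191 had under 10 counts and 11 had none, beside 3988 and 450 of all tested genes. Skeletal muscle genes made up 5 of the 191, MYL1, MYMK, CHRNA1, TRDN and ANKRD2. MYMK, the membrane protein of myoblast fusion, had 8 counts in input 1 and 189 in PD 1 and none in input 2 or PD 2, so its call came from 1 pair. Input 2 and PD 2 also held no count of MYL1, CHRNA1 or ANKRD2, and 0 and 1 of TRDN, so the same limit holds for these.

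Gene copies with near-identical sequence appeared together among these genes, and long reads can be divided between them. NDUFAF2, an assembly factor of respiratory complex I, had 125 and 146 counts in input and 2638 and 4473 in PD, and its processed pseudogene NDUFAF2P1 had 34 and 22 against 194 and 350. RBMS2, an RNA-binding protein, had 7 and 6 against 156 and 70, and RBMS2P1 had 2 and 0 against 278 and 5. The cyclin-dependent kinase pair CDK11A and CDK11B were both enriched with the block, at log2 fold changes of 2.20 and 1.94. Which copy the reads came from is uncertain for each of these.

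Complementarity to the probes themselves was measured as the longest exact run between a probe and the canonical transcript of each gene, searched from 9 bases up and on the strand a probe would pair with. A run of 12 or more bases was present in 6.18% of the tested genes, in 15 of the 189 annotated genes enriched with the block (7.94%) and in 2 of the 92 depleted (2.17%). A run of 14 or more was present in 36 of all tested genes (0.291%) and in 4 of the enriched (2.12%). Long transcripts hold more runs, from 0.731% of those under 1 kb to 18.3% of those over 8 kb with 12 or more bases. The longest run of all, 17 bases in PHF19, went with a log2 fold change of 0.26. Among the genes enriched without the block the longest run was 9 bases in PSMC4, 11 in C20orf96, 12 in NUDT17 and 13 in PRKRIP1, and the median over all genes was 10.

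Probe 7 stood out, after the values were seen, as the probe with the most calls for its matches. Of 29 tested genes with 12 or more bases complementary to it, 5 were enriched with the block (17.2% of the 29, beside 1.54% of all tested genes), among them PRKRIP1 and NUDT17, which were also enriched without it. The median log2 fold change of the 29 was 0.67. Its matches in 4 of the 5 genes are shown because they overlap in the same stretch of the probe; capitals mark the bases that pair with each transcript.
probe 7 and LINC00639: taatcaGGGGTGTTCTGCTC
probe 7 and PRKRIP1: taatcagGGGTGTTCTGCTC
probe 7 and GPN2: taatcaGGGGTGTTCTGCTc
probe 7 and NUDT17: taatcaGGGGTGTTCTGCtc
The fifth gene was ARHGAP31, which also had a run with probe 19. A match of letters is a description of the sequences and shows no binding. Probe 10 had the most matches, 98 genes, and none of them was called with the block.

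The depleted genes were more abundant in the extract than the enriched ones, as a gene must be seen in input to be called lower. The gene depleted without the block was NPM1P46, a processed pseudogene of nucleophosmin, with 86 and 1697 counts in input and none in PD or LacZ. On mean levels, with a floor of 3 counts per PD library, it was at least 298-fold lower in PD. Its 2 input libraries differed greatly, so this value rests mostly on input 2 and is not a bound for pair 1. DESeq2 did not call it (adjusted p = 0.274), and reads from the parent gene could be counted there. The other depleted genes described next were called by edgeR with the block and not without it. MAP1B, which stabilises microtubules in growing axons, had 2486 and 2314 counts in input, 918 and 236 in PD and 8 and 29 in LacZ. It stood at 3551 ± 103 CPM in input and 623 ± 148 in PD (SD, n = 2), 5.69-fold lower (log2 fold change -2.51 ± 0.65, adjusted p = 0.255, and 0.00618 with the block). LacZ was lower still, at 251 and 207 CPM.

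Several of the depleted genes have long transcripts. CPLANE1, a ciliogenesis protein with a transcript of 11302 bases, had 79 and 49 counts in input and 14 and 2 in PD (log2 fold change -3.46 ± 0.75, adjusted p = 0.122, and 2.57e-05 with the block). SCN3A, a neuronal sodium channel, had 54 and 79 against 14 and 0 (-3.83 ± 0.93). AGTPBP1, a tubulin deglutamylase with a shorter transcript of 4464 bases, had 95 and 96 against 25 and 12 (-2.62 ± 0.67). In each the PD libraries lay below both inputs, as did 18.7% of all genes. The receptor ERBB4 had 30 and 44 counts in input and 6 and 0 in PD, and the insulin-like growth factor receptor IGF1R, whose ligand IGF2 was enriched, changed by -1.87 ± 0.68 on the log2 scale (adjusted p = 0.685, and 0.0175 with the block). IRS2, an adaptor of that receptor, had -1.62 ± 0.70 (adjusted p = 0.847, and 0.0351 with the block).

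Others have a single exon and a short transcript. H1-3, a linker histone, had 87 and 42 counts in input and 12 and 4 in PD (log2 fold change -3.33 ± 0.74, adjusted p = 0.132, and 7.24e-05 with the block), and the core histone gene H4C3 had 378 and 502 against 160 and 72 (-2.20 ± 0.70, adjusted p = 0.512, and 0.00740 with the block). Both are replication-dependent histone genes, whose mRNAs mostly lack a poly(A) tail. EEF1B2P2, a processed pseudogene of a translation elongation factor, had 224 and 313 against 88 and 34 (-2.46 ± 0.63). Of the 92 genes, 34 (37.0%) had 1 exon, beside 10.7% of all genes, 25 (27.2%) were processed pseudogenes, beside 7.34%, and 13 (14.1%) were longer than 8 kb, beside 8.17%. Their median input level was 120 CPM, their median length 3360 bases and their median GC content 43.3%. Signs were the same in both pairs for 87 of them, 77 were below -1 in both pairs (6.05% of all genes were), and DESeq2 also called 11. As on the enriched side, agreement of the pairs follows from how the block fit chose the genes.

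Some depletions rested on 1 input library. TCF12, a bHLH transcription factor, had 90 and 1421 counts in input against 151 and 8 in PD, which is 131 and 2136 CPM against 119.7 and 17.6. IREB2, the iron regulatory protein, stood at 117 and 1260 CPM in input and 73.7 and 61.5 in PD. POLR2B, a subunit of RNA polymerase II, stood at 42.3 and 439 CPM in input and 27.7 and 21.98 in PD. For these 3 genes the inputs differed from each other by more than input 1 differed from PD. TUBA1A, a neuronal alpha-tubulin and one of the most abundant mRNAs of the extract, had 18237 and 10264 counts in input and 10831 and 1717 in PD. Its log2 fold change of -1.77 ± 0.79 passed neither fit (adjusted p = 0.893, and 0.274 with the block).

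**Figure D2:**
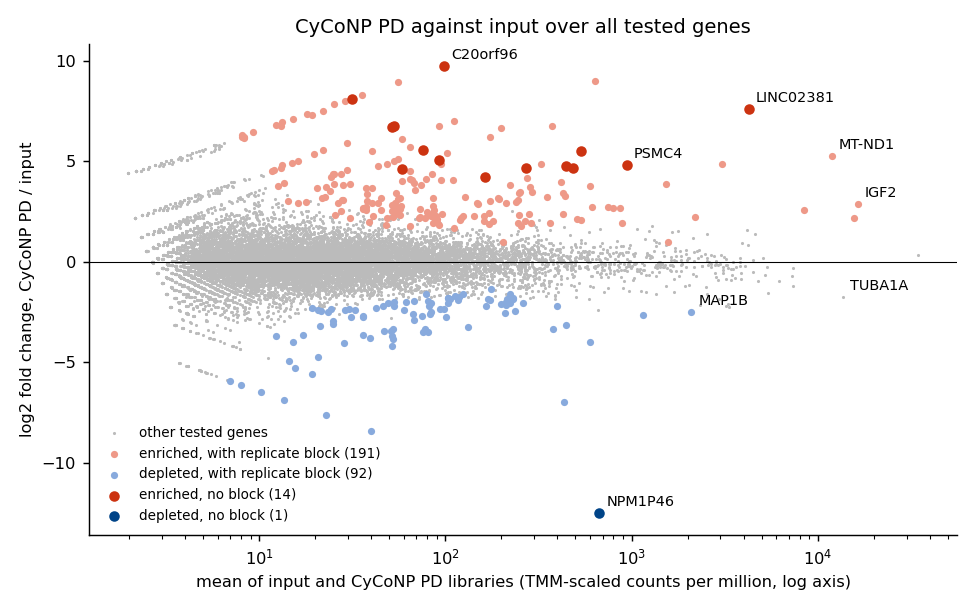
Log2 fold change of CyCoNP PD against input for each tested gene (vertical axis) against its mean level (horizontal axis, log scale), with genes called with the replicate block coloured by direction. Enriched genes spread down to low levels, depleted genes lie at higher ones (median input 120 CPM), and the stripes at the left come from genes with few counts.

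Transcript length ordered the fold changes. Transcripts of 1 to 2 kb had the highest median log2 fold change, 0.38 (2277 genes), and the median fell by class to 0.07 at 2 to 3 kb, -0.18 at 3 to 5 kb, -0.29 at 5 to 8 kb and -0.34 over 8 kb (1015 genes), while the 1915 genes under 1 kb stood at 0.13. Over all genes it was -0.01. Each pair gave a lower value over 8 kb than at 1 to 2 kb, with 0.50 against -0.37 in pair 1 and 0.21 against -0.28 in pair 2. The shortest class parted the pairs, at 0.33 in pair 1 and -0.08 in pair 2. The difference between the longest class and 1 to 2 kb was -0.72 in all, -0.38 without input 1 and -1.05 without input 2. The quartiles of either class were farther apart than the ends of the trend, from -0.12 to 0.89 at 1 to 2 kb and from -0.86 to 0.20 over 8 kb.

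Protein-coding genes alone gave the same order from 1 to 2 kb (0.40) to over 8 kb (-0.36), and so did genes of 20 CPM or more in input (0.29 to -0.45). Of the enriched genes with the block, 59 were 1 to 2 kb long (2.59% of that class) and 12 over 8 kb (1.18%), and of the depleted 9 were 1 to 2 kb (0.395%), 30 under 1 kb (1.57%) and 13 over 8 kb (1.28%). LacZ against the same inputs, whose values share the input libraries, had medians of 0.00 at 1 to 2 kb and -1.44 over 8 kb. The pull-down libraries were made from different amounts of RNA and with more pooled PCR reactions than input, and this difference cannot be told apart from the pull-down.

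GC content followed with a smaller range. The median log2 fold change was -0.20 under 40% GC (2152 genes), 0.12 at 50 to 55%, 0.14 at 55 to 60% and 0.01 over 60%. Length and GC went together, with a median length of 4199 bases under 40% GC and 2260.5 over 60%. In every GC class the median was lower over 8 kb than at 1 to 2 kb, by unlike amounts. It went from 0.37 to -0.54 under 40% GC, and from 0.40 to 0.14 at 55 to 60%, where 59 genes were over 8 kb. The part of each was not tested. Of 1564 genes over 60% GC, 36 were enriched (2.30%) and 1 depleted (0.0639%) with the block, and of those under 40%, 24 (1.12%) and 29 (1.35%), beside 1.54% and 0.741% of all genes. Input level gave no single trend. From 5 CPM up the medians lay between -0.11 and -0.18, but the pairs went opposite ways, to 0.23 in pair 1 and -0.46 in pair 2 for genes over 500 CPM. With the classes set by one input and the ratio taken from the other pair, so that no library served for both, genes over 500 CPM had a median of 0.31 in pair 1 and -0.47 in pair 2. Genes of 1 to 5 CPM had a median of 0.84, and those at the low end of this class reach 10 counts only when high in PD, so nothing is read from it.

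**Figure D3:**
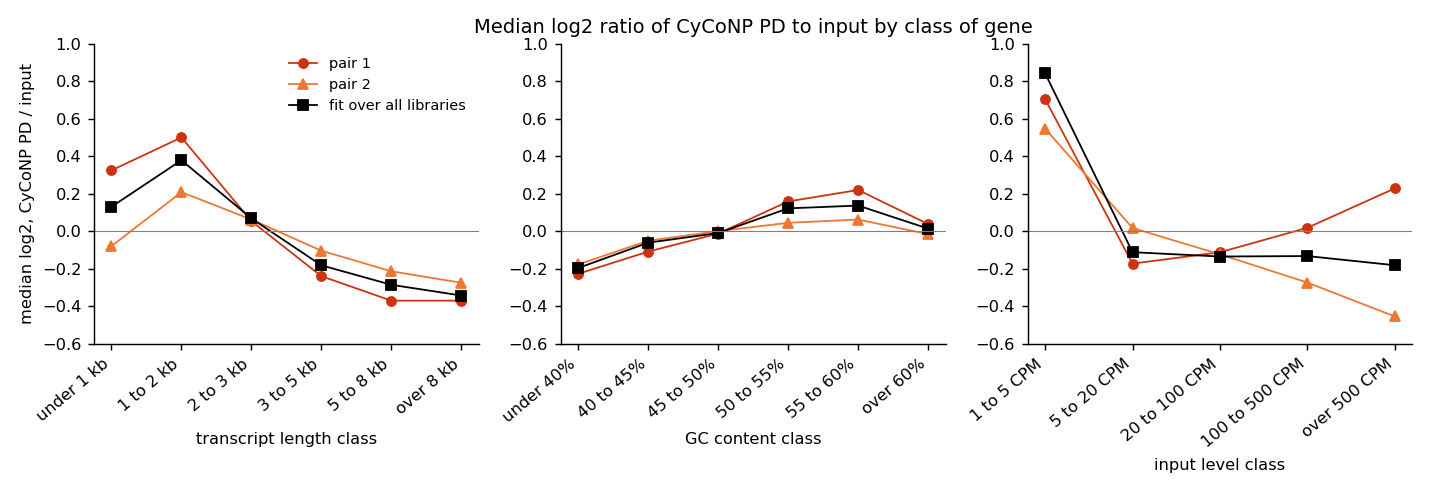
Median log2 fold change of CyCoNP PD against input in classes of transcript length, GC content and input level (CPM), with the value of the fit and of each same-numbered pair. Length falls from 1 to 2 kb to over 8 kb in both pairs, while input level goes in opposite directions in the 2 pairs.

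Among the larger gene classes the medians lay close together. Protein-coding genes (10381) had a median log2 fold change of -0.03 and lncRNAs (814) of 0.19. With the block 21 lncRNAs were enriched (2.58%) and 6 depleted (0.737%), beside 1.54% and 0.741% of all genes. The difference between the 2 classes was 0.21, and it was -0.091 without input 1 and 0.78 without input 2. PCBP1-AS1, an abundant antisense lncRNA, had 1403 and 1278 counts in input and 445 and 128 in PD (log2 fold change -2.64 ± 0.82, adjusted p = 0.459, and 0.00164 with the block). Processed pseudogenes (911) had a median of 0.04 with 19 enriched (2.09%) and 25 depleted (2.74%). The 37 small RNA genes had a median of -1.25, with 1 enriched (2.70%) and 2 depleted (5.41%). The 6 mitochondrial rRNA and tRNA genes had a median of 1.77, with 2 enriched (33.3%) and none depleted. Reads under 100 bases had been removed from these libraries upstream.

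Mitochondrial transcripts moved unevenly, although they come from the same polycistronic precursors. MT-ND1, a complex I subunit, had 581 and 249 counts in input and 48901 and 3481 in PD, with 113 and 530 in LacZ, which is 3549 and 3776 CPM and above both inputs. Its log2 fold change of 5.25 ± 1.02 had an adjusted p of 0.0745, and 1.41e-06 with the block. MT-CYB (cytochrome b) went from 1935 and 1381 to 13174 and 8474 (2.57 ± 0.75, and adjusted p = 0.0350 with the block). MT-CO2, a subunit of cytochrome oxidase, was also enriched with the block (2.21 ± 0.69, adjusted p = 0.0186). MT-ND5 was likewise called with the block, but input 2 held 6967 counts of it against 536 in input 1. MT-ATP8, a subunit of ATP synthase, was depleted with the block (-1.86 ± 0.73, adjusted p = 0.0350), and MT-CO1 had 4491 and 698 counts in input and 889 and 445 in PD, a value that passed neither fit. The median of the 13 mitochondrial mRNAs was -0.57, with -0.09 in pair 1 and 0.21 in pair 2, and their share of all counts was 3.83% and 1.89% in input and 8.16% and 5.16% in PD.

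Nuclear copies of mitochondrial genes share these reads, and 12 of 35 tested copies were enriched and 1 depleted with the block. Their median log2 fold change was 4.82, with 3.98 in pair 1 and 0.55 in pair 2, the latter being the value of a gene with no count in that pair. Their median input was 0.729 CPM, so most passed the count minimum through PD. No count was found in the libraries numbered 2 for 13 of them, and the counts of such copies are uncertain. MTCO1P12 was the depleted copy, with 871 and 223 counts in input against 133 and 35 in PD.

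Gene lists were described by their counts and medians, beside a median of -0.01 and block calls of 1.54% and 0.741% over all genes. Over both pairs and all alternatives the median kept 1 sign for the proteasome, endoplasmic reticulum, glycolysis, neural adhesion, sympathoadrenal and ZNF lists and the RT-qPCR panel. For the other lists given here it changed sign in at least 1 of them, except the muscle genes, which were not recomputed, so their signs are not read as directions. Of the protein-turnover genes, 32 proteasome subunits had a median of 0.45 (0.75 in pair 1 and 0.18 in pair 2) and 3 were enriched with the block. These were PSMC4 and the ubiquitin receptors PSMD4 and ADRM1, with 107 and 146 counts in input against 494 and 575 in PD for PSMD4 and 31 and 63 against 221 and 183 for ADRM1. The remaining 29 subunits passed in neither direction. Of 28 ubiquitin-conjugating enzymes (median -0.05), UBE2V2 and its close relative UBE2V1 were enriched, the latter from 74 and 115 to 472 and 486 counts. Glycolysis enzymes (17, median 0.72), chaperones (32, 0.15) and endoplasmic reticulum folding factors (40, 0.28) had no call with the block in either direction. LacZ against input had medians of 0.61 for glycolysis, 0.17 for proteasome and -0.12 for endoplasmic reticulum, beside -0.70 over all genes. They were -1.50 for neural adhesion, -0.96 for sympathoadrenal, -1.30 for ZNF and 0.08 for the RT-qPCR panel. Median transcript lengths of these lists ran from 1529 bases (proteasome) to 6701 (neural adhesion), and the part of length was not tested.

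Ribosomal and respiratory chain genes had medians of opposite sign in the 2 pairs, as did genes over 500 CPM in general. Cytosolic ribosomal proteins (79) had a median of -0.16, with 0.36 in pair 1 and -0.47 in pair 2, and no call. Nuclear-encoded respiratory chain subunits (76) had -0.02, with 0.43 and -0.36, and no call. Of 78 mitochondrial ribosomal proteins (median 0.19) MRPS18B was enriched, and of 39 translation factors (0.09) EIF5B, which joins the ribosomal subunits, was enriched with 237 and 257 counts in input against 1386 and 780 in PD. Among 45 hnRNP and SR splicing factors (-0.08), RALY was enriched.

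Cell cycle and mitosis genes (44) had a median of -0.11. MKI67 and CENPF were enriched and the thymidylate synthase TYMS depleted with the block, the last with 190 and 299 counts in input against 207 and 15 in PD, so its fall was mainly in pair 2. The other 41 passed in neither direction. Among 23 histone genes (-0.16), H1-3 and H4C3 were depleted.

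Each of the cytoskeletal and neuronal lists held at most 1 call per direction, while 1.54% of all genes were enriched and 0.741% depleted with the block. Counts this small are not read as a result about the lists. Of 36 microtubule-associated proteins and motors (median 0.00), MAP1B was depleted and MAPRE3, which binds growing microtubule ends, enriched, with 89 and 187 counts in input against 834 and 484 in PD. Tubulins (11, median 0.20, from -0.71 to 0.60 over pairs and alternatives) and actin cytoskeleton genes (36, 0.20, from -0.37 to 0.43) had no call. Of 29 growth cone genes (-0.08), MARCKS, a membrane-bound actin regulator, was depleted with 345 and 122 counts in input against 106 and 33 in PD. Of 21 neural adhesion molecules (-0.47), NCAM1 was the one called, and it was enriched while the list's median was negative. Sympathoadrenal identity factors (19) had a median of -0.48, with -0.77 in pair 1 and -0.62 in pair 2, and TBX3 was depleted with 262 and 113 counts in input against 128 and 20 in PD. Catecholamine genes (14, -0.49), granins and neuropeptides (14, -0.11) and MYCN network genes (17, -0.37) had no call with the block.

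Zinc finger genes named ZNF (312) had a median of -0.16 with 3 enriched and 3 depleted. HOX genes (15, median 0.28), retinoic acid signalling genes (15, 0.10), extracellular matrix genes (18, -0.28), snoRNA hosts (25, 0.08) and well-known lncRNAs (24, -0.01) had no call in either direction. Of the 7 transcripts in the study's RT-qPCR panel 6 were enriched with the block, but that panel was chosen from these libraries and is not independent evidence. The 31 tested muscle genes had a median of 1.40, with 1.29 in pair 1 and 0.55 in pair 2, the second of which is the value of a gene with no count in either library of that pair.

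**Figure D4:**
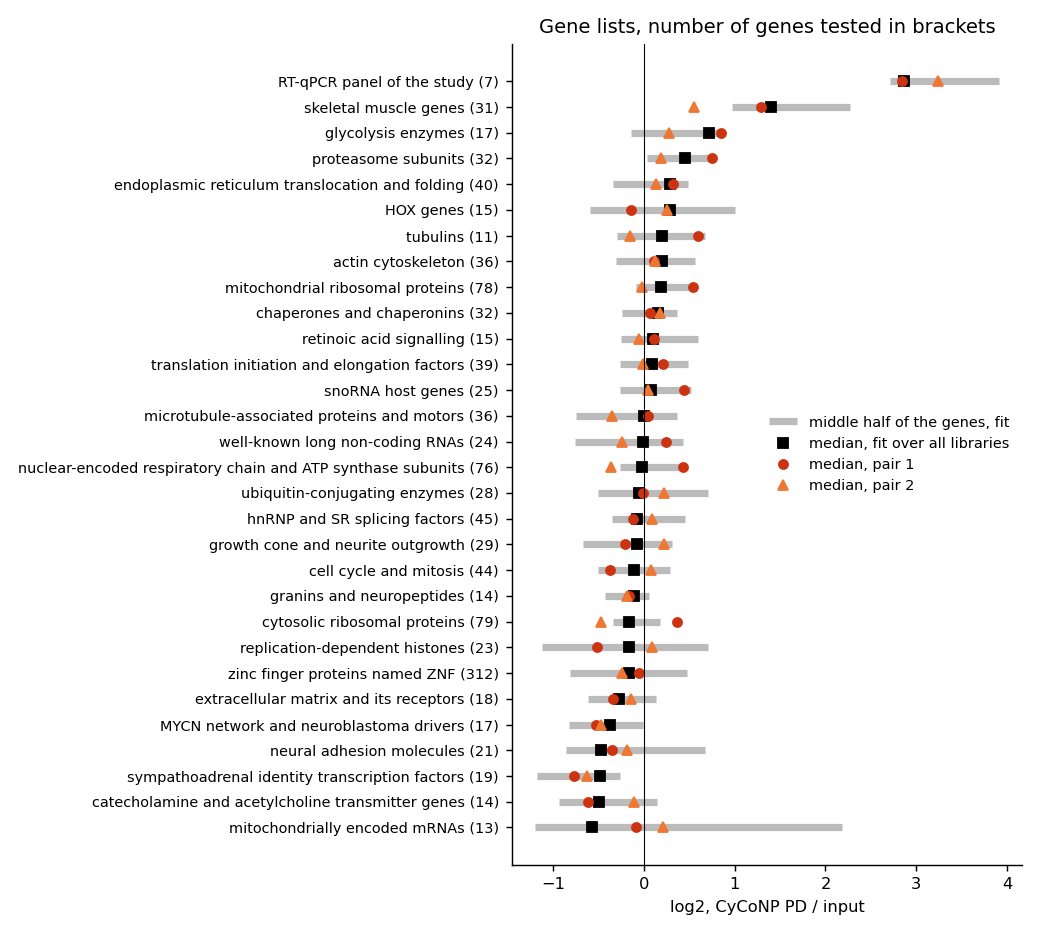
Median log2 fold change of CyCoNP PD against input in gene lists with 7 or more tested genes, for the fit and for each same-numbered pair, with bars from the lower to the upper quartile of the genes. The proteasome subunits lie above 0 in both pairs, and the ribosomal proteins lie on opposite sides of 0 in the 2 pairs.

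The correlation between the pairs rose with the level of a gene, while the share of genes with the same sign did not rise throughout. Over all tested genes the log2 ratios of PD to input had the same sign in 7286 (58.7%), with a Pearson correlation of 0.258 and a Spearman correlation of 0.230 across genes, which are not independent replicates. Setting each PD library against the other input gave the same sign in 47.6% and a correlation of -0.207. By mean level the Pearson correlation was 0.134 at 1 to 5 CPM (1597 genes), 0.401 at 20 to 100 CPM (4080) and 0.680 over 500 CPM (345). The same sign was found in 54.98% at 1 to 5 CPM, 62.9% at 20 to 100 CPM, 65.9% at 100 to 500 CPM and 55.7% over 500 CPM. Ratios beyond 1 in opposite directions were found in 616 genes (4.96%), from 12.1% at 1 to 5 CPM down to 0.290% over 500 CPM. Ratios above 1 in both pairs were found in 627 genes and below -1 in 751, so more genes were lower than higher in both pairs, while the calls were mostly enriched. Of genes with over 100 counts in input, 126 of 2137 were below -1 in both pairs and 37 above 1, and of genes with 30 or more counts in PD, 168 of 6167 were below -1 and 355 above 1, so the balance followed the library type that chose the genes.

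**Figure D5:**
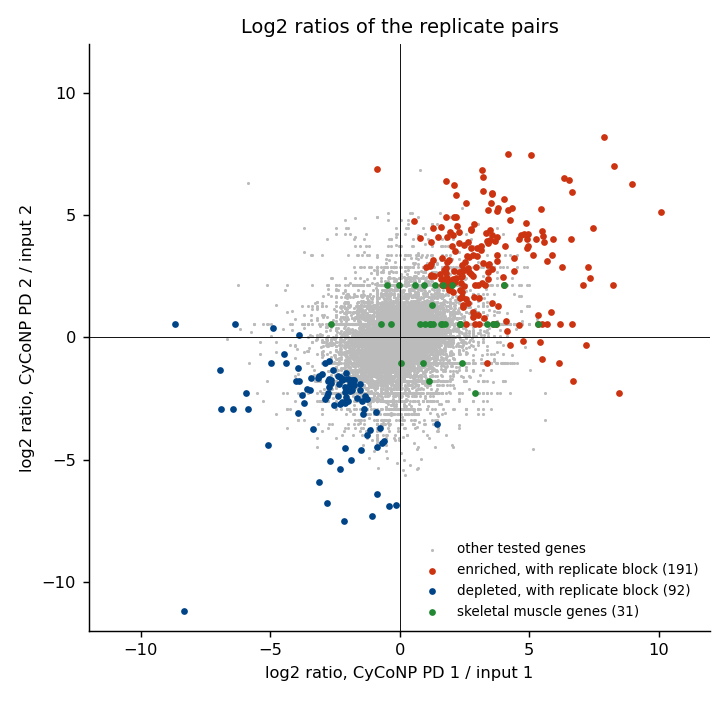
Log2 ratio of CyCoNP PD to input in pair 1 (horizontal) and pair 2 (vertical) for each tested gene, with genes enriched or depleted with the replicate block and the skeletal muscle genes in colours of their own. Called genes lie mostly in the corners where both pairs have the same sign (181 of 191 and 87 of 92), which follows from their choice on these same libraries. Muscle genes gather on a line set by having no count in pair 2.

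Genes around CyCoNP were examined because a probe pull-down can also recover transcripts of the same locus. There were 19 tested genes within 500 kb, CyCoNP included. SMUG1, a DNA glycosylase gene on the minus strand at chr12:54121277-54189008, overlaps CyCoNP in antisense, and it had 16 and 22 counts in input, 156 and 71 in PD and 0 and 3 in LacZ. Its groups did not overlap (log2 fold change 2.30 ± 0.67, adjusted p = 0.380, and 0.00253 with the block), and reads of the overlapping genes cannot be told apart where strand was not used in counting. HOXC4, the nearest tested gene of the HOXC cluster upstream, had 12 and 28 counts in input and 64 and 78 in PD, and passed neither fit (1.87 ± 0.78, adjusted p = 0.0650 with the block). HOXC8 (30 and 19 against 21 and 13) and HOXC10 (38 and 18 against 72 and 32) passed neither fit. HNRNPA1 (296 and 409 against 1946 and 767) and COPZ1 (48 and 65 against 206 and 95) were above 1 in both pairs. So was HOXC-AS2, at very few counts (2 and 0 against 48 and 1), and all of these passed neither fit.

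Values of the control pull-down stood beside these with the inputs in common. LacZ against input gave no call in either direction in edgeR, where before adjustment 83 genes were higher and 778 lower at a p under 0.05, and 14 and 97 calls with the block. The median log2 fold change of LacZ was -0.70 over all genes, -0.15 for the 14 enriched genes and -3.03 for the 92 genes depleted with the block. For the enriched genes LacZ counts were few, from 0 to 20 in each library, and MAP1B, CPLANE1, H1-3 and AGTPBP1 had LacZ log2 fold changes of -3.98, -4.01, -4.02 and -3.65. At 18870 counts, 3 counts in LacZ 1 already amount to 94.2 CPM, so lower levels were not detectable there.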

How the data were processed

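Counts per gene were deposited by the authors for 6 libraries. Per the paper's methods, nanopore PCR-cDNA reads were basecalled with Guppy, reads under 100 bases removed, aligned with minimap2 (2.24-r1122 in the submitters' processing notes, GRCh38) and counted with Bambu on Ensembl release 99. A deposited table of CPM values was not used, and other per-sample columns not used numbered 0. Counts were analysed with edgeR 4.0.16 (R 4.3.3): TMM scaling, 1 quasi-likelihood fit over the 6 libraries, Benjamini-Hochberg adjustment, and a call at an adjusted p under 0.05 and a log2 fold change beyond 1. A block for the replicate number was the alternative fit. Same-numbered libraries pair by the study's duplicates, and their deviations from group means correlated at 0.451, 0.270 and 0.258. Ratios within pairs used a pseudocount of 0.5 counts. Other alternatives were DESeq2 1.42.0, other scalings and count minimums, and leaving out each library. Transcript length (canonical transcript), exons and GC came from GENCODE release 44, which held 12382 of the 12419 genes. Values after ± are the SD of 2 libraries or the SE of the edgeR fit, and both hold the spread between libraries. Floors cover counting error only. On simulated counts for 11453 genes edgeR called 100 of 100 genes raised 16-fold and 88 of 100 lowered 16-fold, with 6 false calls. The simulation used the same fixed dispersion for every gene and no difference between the numbered duplicates. It therefore does not show how often such changes would be called in these libraries.

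Genes named were those the study names, 12 per direction by smallest p with changes beyond 1 in both pairs (100 counts in input or 30 in PD), 5 of the highest level per group, 2 per list and direction, those near CyCoNP and those called. Other genes called with the block were named after their values were seen. The comparison and lists were chosen with earlier results of these data known.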

Additional observations from a re-analysis of the deposited data

How the results depend on the processing

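Direction held for CyCoNP throughout. For the other named genes a reversal was counted only where the edgeR fit without the block gave an adjusted p under 0.05. None was found, and changes of sign in the rest were not counted. The count of enriched and depleted genes (14 and 1) changed most. It was 5 and 0 with library size alone (before adjustment, 345 and 318 at a p under 0.05), 58 and 14 with DESeq2, 86 and 35 with DESeq2 and the replicate block, and 99 and 27 with no count filter. With 50 or more counts it was 6 and 0 (239 and 201 unadjusted), with filterByExpr 13 and 0 (233 and 194), and with only the 4 libraries 0 and 0 (364 and 330). With the replicate block it was 191 and 92. Alternatives chosen after seeing the data gave 241 and 161 (4 libraries with the block), and 96 and 34, or 155 and 84 with the block (10 or more counts in replicate 2). Leaving out 1 library gave 0 to 103 and 0 to 41. The CyCoNP log2 fold change was 7.17 to 8.17 without 1 library, and 7.59 with only the 4 libraries, where its adjusted p was 0.278; without LacZ 1 or 2 it was 0.247 and 0.268. The share of genes with the same sign in both pairs (58.7%) was 47.6% with pairs crossed, 62.7% with 50 or more counts and 60.1% with 10 or more in replicate 2. The length difference ranged from -1.05 to -0.38 without 1 library. The difference between genes over 500 CPM and those of 5 to 20 CPM was -0.070, and -0.84 with 50 or more counts. The lncRNA difference ranged from -0.091 to 0.78. Of 2971 values of named genes under alternatives, 67 lost an adjusted p under 0.05 and 252 gained one, whatever the fold change. Of 31 list medians, 22 changed sign in at least 1 alternative. The cause was not tested. The LacZ libraries limit depth most, and genes under 20 CPM are read from few counts in each library.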
